A study of Rattus norvegicus with 8 samples.

Results

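The short intergenic predicted lncRNAs of rat thoracic aorta are the 1432 assembled transcripts that the authors' lncRNA table lists with class code u and a length under 1000 bases. They were taken by those 2 columns alone, without use of any expression value. They make up 30.6% of the 4686 transcripts in the table. A further 1389 transcripts carry the same class code with a length of 1001 bases or more and are called long intergenic below. No short intergenic transcript passed the test between nitroglycerin and vehicle. Most of them were seen in some of the 8 libraries only, at mean levels under 1 FPKM (fragments per kilobase of transcript, scaled to library depth).

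Long non-coding RNAs are transcripts without a recognised protein-coding frame. Those that lie between annotated genes are called intergenic, and class code u is the mark that transcript comparison tools give to an assembled transcript overlapping no annotated one. Some intergenic lncRNAs regulate nearby genes, host small RNAs or act as scaffolds for proteins, while others are fragments of unannotated transcript ends or products of enhancer transcription. In the arterial wall, lncRNAs are known from smooth muscle and endothelial cells, where several influence contractile genes. Names beginning with MSTRG are running numbers from the assembly and say nothing of function.

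Total RNA depleted of ribosomal RNA was sequenced from the thoracic aorta of male, wild-type Sprague Dawley rats, whose labels give an age of 12 weeks. The 4 nitroglycerin libraries (N1 to N4) came from rats injected subcutaneously with glyceryl trinitrate, a nitrate drug that widens vessels, at 100 mg/kg, 3 injections daily over 3 days. The 4 control libraries (C1 to C4) came from rats that received ethanol, the vehicle, on the same schedule. The labels do not say that each library is a separate rat. The p-values therefore describe the spread among these 8 samples, part of which may be technical. The extraction text of the labels also refers to an adipose RNA, while the tissue label is aorta.

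The libraries held 6.77 to 8.86 gigabases of aligned sequence, read from the ratio of coverage to FPKM. Smooth muscle markers (6 of 7 with a row) summed to 2012 to 2679 FPKM in controls and 1256 to 2636 in nitroglycerin libraries, so the labelled tissue is represented. Fat cell markers (8 of 8 with a row, none at 0 throughout) summed to 11.4 to 30.8 FPKM in controls and 23.2 to 30.3 in 3 nitroglycerin libraries, against 147 in N1. Macrophage markers (3 of 4) summed to 8.71 to 11.2 and 12.5 to 20.9 FPKM, and skeletal muscle markers (5 of 6) to 22.0 to 32.2 and 14.8 to 21.8 FPKM, in controls and nitroglycerin libraries. Endothelial markers (5 of 6) summed to 20.2 to 44.4 and 38.1 to 46.2 FPKM in the same order. Fibroblast markers (3 of 4) summed to 1666 to 2415 and 1356 to 1461 FPKM, and neuron markers (3 of 3) to 0.0800 to 0.280 and 0.330 to 2.23 FPKM. As deposited, the sums of the groups did not overlap for 4 of the 10 marker lists read: fibroblast, macrophage, skeletal muscle and neuron. The sums were not rescaled between libraries, and the share without overlap over all gene rows was not read. Genes within a list did not all move alike. Most of the fibroblast sum was Col1a1, at 1507 to 2053 FPKM in controls and 1126 to 1200 with nitroglycerin. Dcn, at 57.9 to 115 and 108 to 137 FPKM, and Lum overlapped. Tubb3 made up nearly all of the neuron sum. Csf1r among macrophage markers overlapped, as did Acta1, Mylpf, Tnnt3 and Casq1 among skeletal muscle markers. Ckm, Cd163 and Adgre1 did not overlap. Lmod1, Tek, Cfd and Retn, from lists whose sums overlapped, did not overlap either. Tek, for example, had 3.44 to 6.35 FPKM in controls and 7.54 to 8.76 with nitroglycerin. The part of these markers in the results below was not tested. In whole tissue, fewer cells of a type and less RNA per cell cannot be told apart. Among all 12977 gene rows tested, the median log2 difference was 0.30 above 0 in nitroglycerin libraries.

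The short intergenic transcripts were 201 to 999 bases long, with a median of 415 and quartiles of 290 and 637. Of these, 400 were under 300 bases, 459 were from 300 to under 500 bases, and 573 were 500 bases or longer. The shortest were MSTRG.11114.1, MSTRG.19167.1 and MSTRG.8664.1, at 201 bases each, with mean levels of 0.154, 0.273 and 0.261 FPKM. At the upper limit, MSTRG.21573.1 and MSTRG.9311.1 (996 bases) and MSTRG.21079.1 (999 bases) lay inside, with mean levels of 0.780, 0.289 and 1.39 FPKM. Just outside were MSTRG.18964.1 (1001 bases), MSTRG.3585.1 (1002 bases) and MSTRG.10025.1 (1004 bases), at 1.63, 0.312 and 0.204 FPKM. Levels on the 2 sides of the limit overlapped.

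A single exon was the rule: 1358 of the 1432 transcripts (94.8%) had 1, compared with 87.1% of the long intergenic ones. The other 74 comprised 53 with 2 exons, 17 with 3, 3 with 4 and 1 with 5. Those 74 spliced transcripts spanned a median of 5703 bases of genome and at most 41813. The strands were nearly balanced, with 703 on the plus and 729 on the minus strand. The transcripts came from 1425 assembled loci, and 1413 of them were the sole transcript of their locus. In the authors' gene table no locus holding one carried a gene symbol.

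Both deposited coding scores placed every transcript on the non-coding side. The same upper limits, about -1.0 for CPC and -0.00041 for CNCI, held in every class of the listed transcripts, which are all predicted lncRNAs. The side of the scores is therefore no result about the short intergenic ones. The CPC score, which weighs open reading frames and similarity to known proteins, ran from -1.58 to -1.0, with a median of -1.17 (long intergenic median -1.14). The CNCI score, which profiles adjoining nucleotide triplets, had a median of -0.02. It stood at -0.00041, the highest value in the table, for 528 short intergenic transcripts (36.9%) and for 99 long ones (7.13%). This share was 56.8% under 300 bases, 38.6% from 300 to under 500 bases and 21.6% at 500 bases or more. The score nearest to the coding side was thus more frequent in shorter sequences.

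Chromosome 2 held 127 of the transcripts, chromosome 1 held 123, chromosome 3 held 108 and chromosome 7 held 103. Chromosome 7 carried 7.19% of the short and 4.03% of the long intergenic transcripts. Coordinates are those of the lncRNA table; Rnor_6.0 is the rat build that the submitters' processing notes name. The nearest listed transcript of another locus lay a median of 12746 bases away, against 4611 for the long intergenic ones. For 660 short intergenic transcripts (46.1%) it lay within 10000 bases, and 91.5% of those neighbours were on the same strand. For 223 (15.6%) it lay within 1000 bases, with 88.8% on the same strand. For long intergenic transcripts the same-strand shares were higher, at 96.2% within 10000 bases and 96.6% within 1000. Distances to annotated genes outside the lncRNA table were not analysed here.

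Many lay in runs on 1 strand. Within windows of 2 megabases, 21 transcripts on chromosome 2 (first start 110133515, last end 110686156) were all on the minus strand. A run of 18 on chromosome 6 (8397142 to 9718165) and 15 on chromosome 3 (33083262 to 33409620) were all on the plus strand, and 12 on chromosome 4 (12256390 to 12360388) were all on the minus strand. The densest window was the start of chromosome 7, with 25 transcripts between 461231 and 1629195, on both strands and including 11 with several exons. In that window 2 listed transcripts carry the symbol 5_8S_rRNA, a ribosomal RNA. The 25 summed to 26.4, 38.5, 44.1 and 36.1 FPKM in C1 to C4 and 27.0, 48.5, 42.3 and 35.4 in N1 to N4, so the groups overlapped.

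The transcripts on chromosome 11 named MSTRG.4295.1 (chr11:24167532-24168309) and MSTRG.4296.1 (chr11:24168980-24169451), lie on the same strand within the span of a listed transcript named Mir155, the host of a microRNA known from inflammation. They are given for their position. MSTRG.4295.1 had 0.963, 1.18, 0 and 0 FPKM in C1 to C4 and 1.30, 0, 1.71 and 1.00 in N1 to N4. MSTRG.4296.1 was listed at 0 in every library but N3, where it had 1.82 FPKM. Neither separated the groups.

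Levels were low. The mean over 8 libraries had a median of 0.343 FPKM (quartiles 0.219 and 0.678), compared with 0.580 for long intergenic transcripts, and 208 (14.5%) reached a mean of 1 FPKM. The highest library of each transcript was more uniform than its mean: it had a median of 1.68 FPKM (quartiles 1.51 and 1.97) and a coverage per base of 13.0 (11.5 to 15.7). In 1293 transcripts (90.3%) that highest coverage was at least 10, and the share was 90.7% for long intergenic transcripts.

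Detection was scattered over the libraries. A value above 0 was listed in 1 library only for 371 transcripts (25.9%), and in all 8 for 176 (12.3%), compared with 22.1% of the long intergenic ones. Spliced transcripts were listed in more libraries: 117 of 1358 single-exon transcripts (8.62%) and 59 of 74 spliced ones (79.7%) were above 0 in all 8. The spliced ones also had a higher median level, at 0.937 against 0.328 FPKM. An exact 0 often stood beside a clear value: of 910 transcripts with at least 30 read equivalents in some library, 751 (82.5%) were listed at 0 in another. The same share was 77.6% of long intergenic and 83.1% of intronic transcripts. Among short intergenic ones it was 87.0% of single-exon and 19.7% of spliced transcripts. A read equivalent is coverage times length divided by 151 bases, the step at which low values clustered; 1 of them was worth 0.0411 to 0.0538 FPKM for a transcript of median length.

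**Figure D1:**
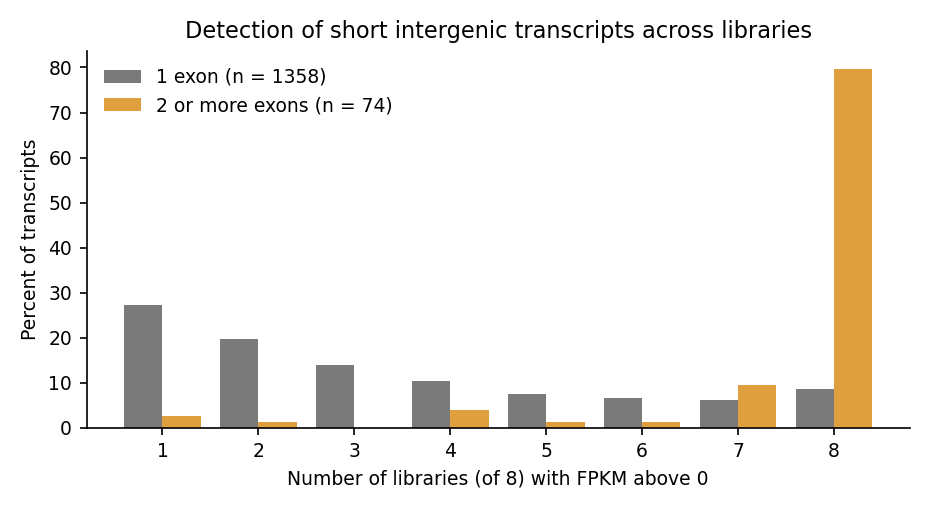
Percent of short intergenic transcripts (vertical axis) listed above 0 FPKM in 1 to 8 libraries (horizontal axis), for 1358 with 1 exon (grey) and 74 with 2 or more (orange). The single-exon ones are spread over all classes with 8.62% in all 8 libraries, while 79.7% of the spliced ones are in all 8.

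The libraries differed among themselves. C1 to C4 listed 661, 593, 666 and 658 of the short intergenic transcripts above 0, and N1 to N4 listed 577, 616, 611 and 762. N4 was the library with the least aligned sequence, yet it stood highest in this count and alone held 94 transcripts, compared with 27 to 50 in each other library. N4 also gave the highest value of 392 transcripts, while C1 gave it for 77. In all, 954 transcripts (66.6%) had their highest value in a nitroglycerin library, and this held for 133 of the 176 listed above 0 throughout (75.6%). Neither trait was particular to the short ones. Of the 1389 long intergenic transcripts, 1070 (77.0%) were highest in a nitroglycerin library, 546 of them in N4. N4 also listed the most long ones above 0, at 949. The summed level of the short intergenic transcripts without MSTRG.6636.1, the highest one, was 631, 870, 901 and 909 FPKM in C1 to C4 and 984, 982, 1104 and 1366 in N1 to N4. As deposited, the nitroglycerin sums all lay above the control sums, with C1 lowest and N4 highest. After rescaling by genes the groups overlapped, at 851 to 1005 FPKM in controls and 850 to 1122 with nitroglycerin.

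**Figure D2:**
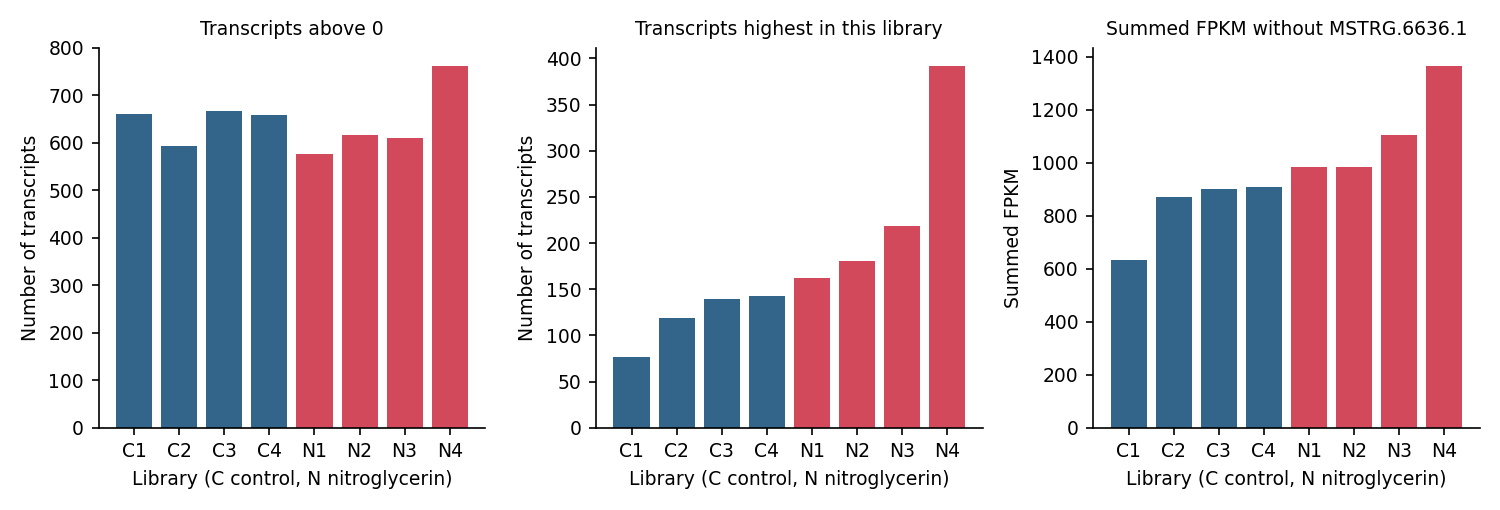
Bars give, for each library (blue control, red nitroglycerin), the number of short intergenic transcripts above 0, the number that had their highest value there, and their summed FPKM without MSTRG.6636.1. N4 stands highest in all 3 panels, at 762 transcripts, 392 transcripts and 1366 FPKM.

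The 10 of highest mean FPKM had means of 6.36 to 110.6. MSTRG.6636.1 (chr14:46633725-46636349, plus strand, 2 exons, 401 bases) had 65.3, 106.5, 107.4 and 48.9 FPKM in C1 to C4 and 157, 102, 236 and 61.2 in N1 to N4. The groups overlapped, with a log2 difference of 0.67 (SE 0.48, adjusted p = 0.638 by limma). Its locus holds 32 listed transcripts, 27 of which overlap exons of an annotated gene, so reads may have been divided among them and its level is uncertain. MSTRG.10297.1 (chr2:18576062-18587596, minus strand, 2 exons, 764 bases) was steadier, at 11.3, 17.0, 11.9 and 11.4 FPKM in controls and 18.1, 12.0, 17.6 and 14.6 with nitroglycerin. Its groups overlapped too.

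MSTRG.17199.1 (chr6:31047172-31047525, plus strand, 354 bases) was high or nearly absent within both groups. It was listed at 0 in C1 and at 42.0, 43.5 and 47.2 FPKM in C2 to C4, and had 41.2, 0.721, 20.7 and 2.64 in N1 to N4. Its log2 difference of -0.54 had an SE of 2.10. Leaving out 1 library at a time gave -2.74 without C1 and positive values of 0.17, 0.18, 0.22 and 0.46 without C2, C3, C4 and N2. The neighbour 1295 bases away on the same strand, MSTRG.17200.3, had 134 FPKM in C2 and 579 in N2 and was below 0.0001 elsewhere. The 2 did not share a pattern over the libraries.

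Values were also read for 3 close pairs on opposite strands, chosen after their values were seen. MSTRG.15560.1 (chr5:25344997-25345690, plus strand, 694 bases) had 8.17, 20.3, 9.50 and 9.08 FPKM in C1 to C4 and 24.5, 8.66, 24.3 and 11.0 in N1 to N4. MSTRG.15561.1 (chr5:25345961-25346602, minus strand, 642 bases) ends 270 bases from it and had 2.11, 6.08, 3.23 and 2.82 FPKM, then 8.52, 3.28, 9.55 and 4.00. Both were highest in C2, N1 and N3, that is in libraries of both groups. MSTRG.11834.1 (chr2:261346034-261346554, plus strand, 521 bases) had 12.9, 13.0, 11.2 and 17.8 FPKM, then 11.9, 10.2, 12.4 and 33.1. Its partner MSTRG.11835.1 (chr2:261346670-261347125, minus strand, 456 bases) had 1.92, 1.64, 2.11 and 3.06 FPKM, then 2.08, 2.24, 1.76 and 5.16. Both were highest in N4 and next in C4. In the third pair, MSTRG.18113.1 (chr7:1627834-1628744, minus strand, 2 exons) had 2.34, 6.01, 4.49 and 3.60 FPKM, then 3.13, 6.60, 5.37 and 0.431. MSTRG.18114.1 (chr7:1628467-1629195, plus strand), which overlaps it, had 3.65, 5.34, 4.66 and 4.33 FPKM, then 3.72, 7.58, 6.01 and 4.25. Both were highest in N2, but the first was lowest in N4 and the second in C1. Whether reads were counted by strand is not given in the sources used here, so the members of such a pair cannot be told apart with certainty.

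The other 5 of the 10 were MSTRG.3652.1, MSTRG.15089.1, MSTRG.12409.1, MSTRG.6628.1 and MSTRG.6646.5, with means of 13.0, 11.9, 8.88, 6.67 and 6.36 FPKM. Their log2 differences were 0.22 to 0.39, and the groups overlapped in each. Across all 10, adjusted p was 0.592 to 0.956 by limma. After rescaling of the libraries by genes or by lncRNAs, the log2 difference of 7 of the 10, all but MSTRG.6636.1, MSTRG.15560.1 and MSTRG.17199.1, turned from above to below 0 in at least 1 of the 2 scalings.

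A further pair of spliced transcripts completed the 5 highest of that kind. MSTRG.9054.2 (chr18:2365099-2367797, plus strand, 3 exons, 482 bases) had 4.65, 0.991, 4.23 and 5.11 FPKM in C1 to C4 and 0.191, 5.53, 4.43 and 7.45 in N1 to N4. A low library stood in each group, C2 and N1. MSTRG.4100.1 (chr10:106192452-106208541, plus strand, 2 exons, 295 bases) had 4.36 ± 1.28 FPKM in controls and 3.65 ± 1.69 with nitroglycerin (mean ± SD, n = 4 per group), which differed by less than the spread.

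The comparison of nitroglycerin with vehicle could be made for 587 of the 1432 transcripts (41.0%), those that reached 0.1 FPKM in 4 or more libraries. The filter took 69 of 74 spliced transcripts and 518 of 1358 single-exon ones. MSTRG.2894.1, with 0.102 FPKM in the lowest of its 4 highest libraries, was the lowest tested and MSTRG.15563.1, at 0.0996, the highest left out. By limma on log2(FPKM + 0.1), a scale that understates the change of low transcripts, with Benjamini-Hochberg adjustment over all 2390 lncRNA transcripts tested, 0 short intergenic transcripts passed an adjusted p of 0.05. Of all tested, 0.0418% passed. The lowest adjusted p among the short intergenic ones was 0.0964.

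At an unadjusted p under 0.05, 35 (5.96%) were higher with nitroglycerin, where the share of all tested was 7.62%, and 4 (0.681%) were lower, where it was 1.13%. The 4 libraries of each group did not overlap for 27 higher transcripts (4.60%, against 7.28% of all tested) and 1 lower (0.170%, against 0.335%). With every library kept, the shares among short intergenic transcripts were thus not above those of the table. After either rescaling the groups did not overlap for 10 higher (1.70%) and 4 lower (0.680%). The shares of all tested were then 2.21% and 1.21% by genes, and 2.09% and 1.38% by lncRNAs. An unadjusted p under 0.05 with a log2 difference of 1 or more in size was reached by 31 (5.28%, against 6.49% of all tested). Their median log2 difference was 0.35, with 67.8% above 0, and that of all tested was 0.36, with 68.5% above 0. When libraries were rescaled by median-of-ratios factors from genes or from lncRNAs, the median became 0.07 or 0.04, against 0.06 or 0.02 over all tested. By genes the counts at an unadjusted p under 0.05 (limma) became 14 higher (2.38%) and 9 lower (1.53%). The shares of all tested were then 2.76% and 2.13%. By lncRNAs the counts became 13 higher (2.21%) and 10 lower (1.70%), against 2.63% and 2.26% of all tested. The lower count was 13 without N4 (2.21%, against 2.09% of all tested) and 9 without N2 (1.53%, against 1.80%). Without N4 the higher count was 34 (5.79%, against 5.48% of all tested) and the median 0.28. Both shares without N4 were thus slightly above those of all tested. Without C1 the higher count was 25 (4.26%, against 6.03% of all tested) and the median 0.26.

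**Figure D3:**
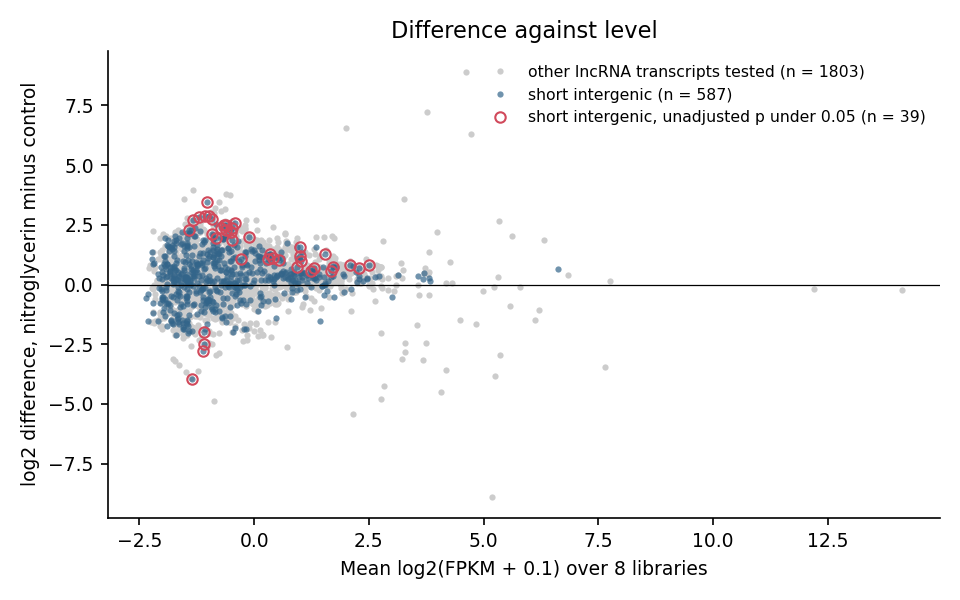
Log2 difference, nitroglycerin minus control (vertical axis), against mean log2(FPKM + 0.1) over 8 libraries (horizontal axis) for 2390 lncRNA transcripts, with the 587 short intergenic ones in blue and the 39 at an unadjusted p under 0.05 ringed in red. Most short intergenic points lie at low levels, where differences spread widely on both sides of 0.

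Precision rose with level. Among the 125 tested transcripts with a mean under 0.5 FPKM the median SE of the log2 difference was 1.12, and none had an unadjusted p under 0.05. The 258 from 0.5 to under 1 FPKM had a median SE of 1.13, with 16 higher and 4 lower. The 125 from 1 to under 2 FPKM had 0.71, with 8 higher and 0 lower, and the 79 at 2 FPKM or more had 0.34, with 11 higher and 0 lower. In the last class 81.0% of log2 differences were above 0. These values are as deposited, where 68.5% of all lncRNA transcripts tested were above 0. After rescaling by genes or by lncRNAs, 53.4% or 51.7% of the short intergenic ones were above 0. Shares by level were not read over all tested or after rescaling. Of the 383 short intergenic transcripts tested with a mean under 1 FPKM, 277 (72.3%) had an SE above 1 on the log2 scale, and the smallest SE was 0.42.

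Among the 10 of lowest p with higher values under nitroglycerin, 7 had groups that did not overlap and 5 were listed at 0 in some control. Of all tested, 7.28% were higher without overlap. The 10 were picked by low p from these same values, so their count without overlap is no further support. MSTRG.508.1 (chr1:77944073-77944802, plus strand, 730 bases) had 2.35, 2.30, 3.11 and 2.18 FPKM in C1 to C4 and 4.70, 3.39, 4.75 and 4.04 in N1 to N4. Every nitroglycerin library lay above every control, and the log2 difference was 0.74 (SE 0.23, adjusted p = 0.505 by limma). MSTRG.22278.1 (chrX:137462609-137463031, minus strand, 423 bases) had 4.32, 4.46, 3.59 and 2.78 FPKM, then 7.03, 5.42, 5.31 and 7.05. Its groups did not overlap either, with a log2 difference of 0.71 (SE 0.23, adjusted p = 0.505 by limma).

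MSTRG.5969.1 (chr13:82607700-82611764, plus strand, 383 bases) was the spliced one of the 10, with 3 exons. It had 0.969, 2.11, 1.15 and 1.28 FPKM in controls and 2.79, 2.33, 3.48 and 2.55 with nitroglycerin. The groups did not overlap, C2 lying closest, and the log2 difference was 1.01 (SE 0.31). MSTRG.13788.1 (chr3:148325357-148325649, minus strand, 293 bases) had 0.609, 1.02, 0.606 and 0.684 FPKM, then 2.81, 1.53, 1.81 and 1.54. It had a log2 difference of 1.27 (SE 0.37), on 10 to 18 read equivalents in controls and 20 to 43 with nitroglycerin. MSTRG.17556.1 (chr6:93805179-93805507, plus strand, 329 bases) had 2.86, 2.52, 4.59 and 2.88 FPKM, then 4.50, 6.21, 6.34 and 5.20. Here C3 lay above N1, so the groups overlapped.

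The other 5 were low in controls. MSTRG.6667.1 (chr14:59814492-59815040, minus strand, 549 bases) was listed at 0 in C1, C2 and C4 and at 0.359 FPKM in C3, and had 1.90, 1.25, 2.54 and 0.876 in N1 to N4. Its adjusted p of 0.252 by limma was the lowest among those with higher values. MSTRG.4293.1, MSTRG.13056.1, MSTRG.8238.1 and MSTRG.1121.1 had 0.0804 ± 0.121, 0.202 ± 0.142, 0.212 ± 0.425 and 0.149 ± 0.299 FPKM in controls, and 1.03 ± 0.689, 1.35 ± 0.486, 1.21 ± 0.332 and 1.20 ± 0.675 with nitroglycerin. For MSTRG.8238.1 and MSTRG.1121.1 1 control reached the nitroglycerin values, so the groups overlapped. All 5 reached 0.1 FPKM in every nitroglycerin library and none did so in every control. They thus met the filter through the group where they were high, and their p are those of transcripts admitted in that way. Each of the 10 log2 differences stayed above 0 under rescaling by genes and by lncRNAs, but all 10 shrank. Of those low in controls, MSTRG.6667.1 went from 3.47 to 3.25 and 3.23. MSTRG.508.1 became 0.36 and 0.33, MSTRG.22278.1 became 0.33 and 0.29, and MSTRG.17556.1 became 0.42 and 0.38. MSTRG.5969.1 became 0.64 and 0.60. After either rescaling 4 of the 10 had groups that did not overlap, namely MSTRG.6667.1, MSTRG.4293.1, MSTRG.13788.1 and MSTRG.13056.1. Of all tested, 2.21% by genes and 2.09% by lncRNAs were then higher without overlap, and the 10 had been picked by low p. For MSTRG.508.1, MSTRG.22278.1 and MSTRG.5969.1 the groups then overlapped.

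**Figure D4:**
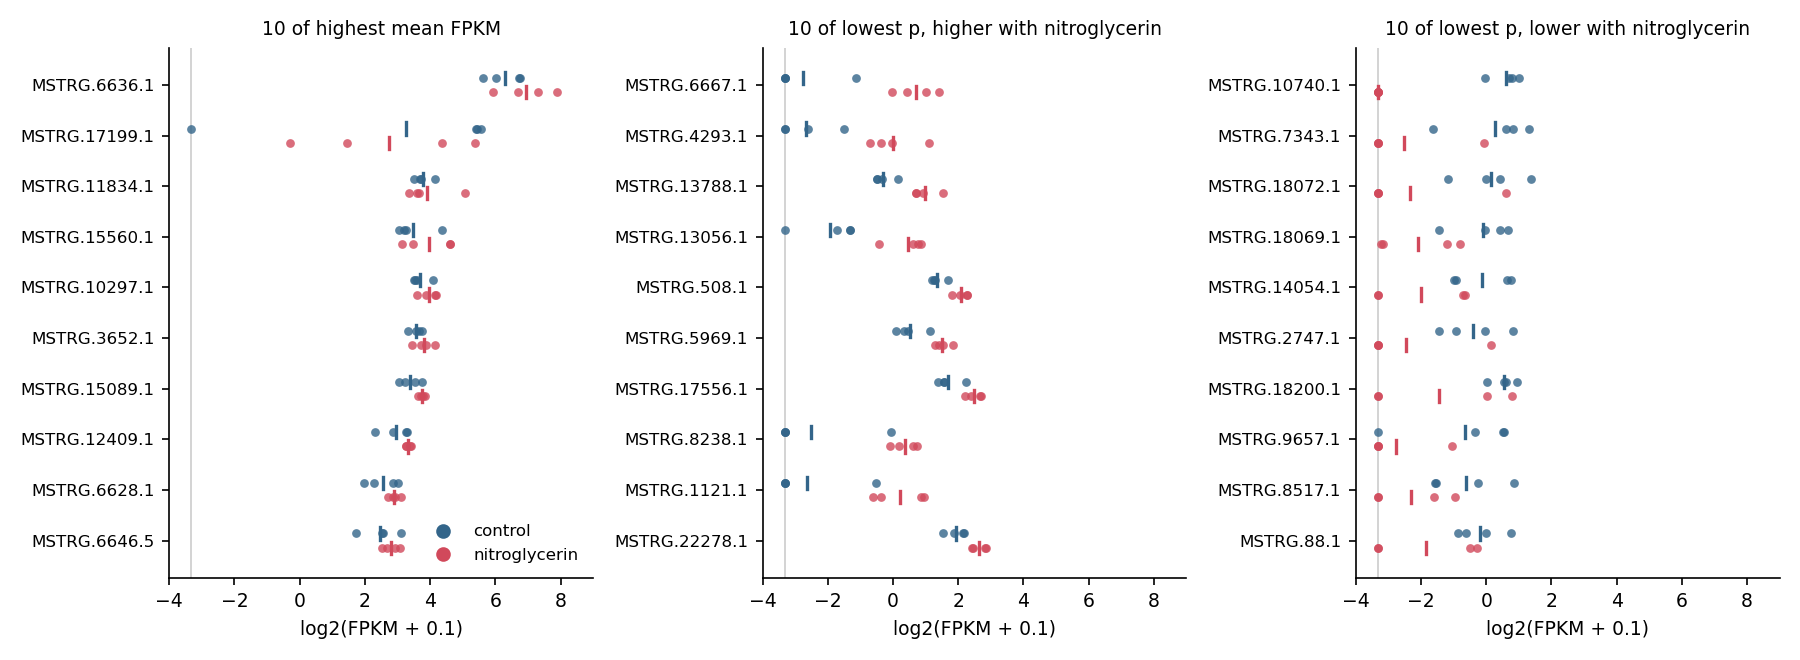
Values of the named transcripts as log2(FPKM + 0.1) (horizontal axis) in 4 control (blue) and 4 nitroglycerin (red) libraries, with group means as vertical ticks and a grey line at 0 FPKM. The 10 of highest mean overlap between groups, and in the right panel every transcript but MSTRG.10740.1 has at least 1 nitroglycerin library above the grey line.

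The transcript of lowest p was MSTRG.10740.1 (chr2:110369204-110369898, minus strand, 1 exon, 695 bases). It had 1.62, 1.92, 1.53 and 0.871 FPKM in C1 to C4, on 61, 78, 59 and 30 read equivalents, and was listed at 0 in N1 to N4. It was the 1 tested transcript of the short intergenic ones that was above 0 in all libraries of a group and at 0 in all of the other. Its adjusted p was 0.0964 by limma. It had reached the filter only through its 4 controls, the group where it was high, so the p is that of a transcript admitted through 1 group. Over the alternatives the adjusted p ran from 0.00275 to 0.526, and it passed 0.05 in 1 of them, without a mean-variance trend, where 0.335% of all tested passed.

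MSTRG.10740.1 lies in the minus-strand run on chromosome 2. Around it 58 listed transcripts stand on the minus strand between 110133515 and 110782885: 21 short intergenic, 33 long intergenic, 3 intronic and 1 antisense. The other 57 summed to 22.1, 27.0, 30.2 and 20.2 FPKM in C1 to C4 and 34.2, 30.9, 28.5 and 63.9 in N1 to N4. As deposited, that sum was higher in 3 nitroglycerin libraries than in any control. With factors from genes, controls were at 22.4 to 33.2 and nitroglycerin libraries at 24.0 to 52.5, and 1 library, N4, lay above the controls. The other 20 short intergenic ones summed to 7.43, 7.28, 6.12 and 5.57 FPKM, then 9.62, 12.9, 12.3 and 14.4. These sums did not overlap between groups as deposited, and they did after rescaling: with factors from genes they were 10.0, 7.31, 6.73 and 6.16 in controls and 8.30, 12.1, 10.3 and 11.8 with nitroglycerin.

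Within that run 0 of the 21 short intergenic transcripts were above 0 in all 8 libraries, and they showed 20 distinct patterns of presence and absence. Of the 10 tested, 5 had higher and 5 lower mean log2 values with nitroglycerin. MSTRG.10738.1 (chr2:110365105-110365317), at lower coordinates, had 0.669, 0.679, 0.672 and 1.23 FPKM in controls and 1.58, 1.51, 0 and 0.869 with nitroglycerin. MSTRG.10741.1 (chr2:110371211-110371836), 1312 bases beyond, was listed at 0 in every library but N2, where it had 1.53 FPKM. Whether neighbouring short transcripts are pieces of 1 longer RNA was not tested.

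**Figure D5:**
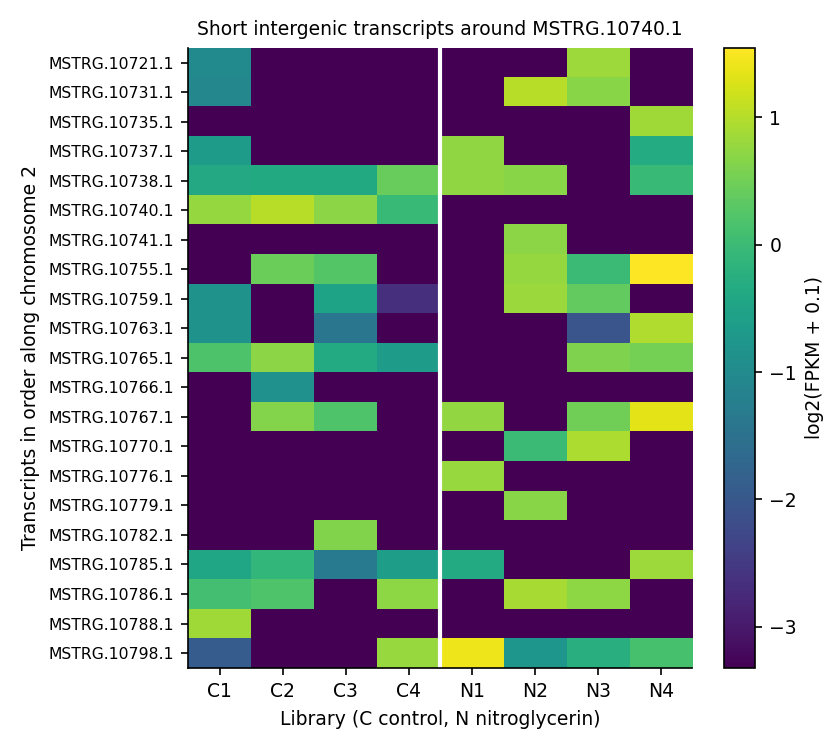
Log2(FPKM + 0.1) as colour for the 21 short intergenic transcripts of the chromosome 2 run (rows, in order along the chromosome) in 8 libraries (columns, controls left of the white line). MSTRG.10740.1 is above 0 in 4 controls and at 0 in 4 nitroglycerin libraries, and the darkest cells, at 0, are scattered over both groups in the other rows.

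The other 9 of lowest p with lower values under nitroglycerin overlapped between groups. MSTRG.7343.1 (chr15:39311807-39312262, plus strand, 456 bases) had 1.42, 1.68, 2.36 and 0.221 FPKM in C1 to C4, and 0.853 in N1 with 0 in N2 to N4. MSTRG.18072.1 (chr7:502618-502890, minus strand, 273 bases) had 0.894, 0.345, 1.23 and 2.50 FPKM in controls, and 1.43 in N3 with 0 in the other nitroglycerin libraries. In each, 1 nitroglycerin library lay among the controls.

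MSTRG.18069.1 (chr7:478385-486609, plus strand, 2 exons, 476 bases) had 0.266, 0.879, 1.25 and 1.50 FPKM in controls and 0.0111, 0.00707, 0.476 and 0.337 with nitroglycerin. It overlaps a listed transcript of the opposite strand, and it lies with MSTRG.18072.1 in the dense window at the start of chromosome 7. MSTRG.14054.1, MSTRG.2747.1, MSTRG.18200.1, MSTRG.9657.1, MSTRG.8517.1 and MSTRG.88.1 had control means of 0.731 to 1.38 FPKM and nitroglycerin means of 0.0963 to 0.640 FPKM. Each of those 6 was listed at 0 in at least 2 nitroglycerin libraries. The adjusted p of the 9 was 0.533 to 0.592 by limma. All but MSTRG.9657.1 reached 0.1 FPKM in every control, and none did so in every nitroglycerin library. All but MSTRG.9657.1 thus met the filter through the group where they were high. MSTRG.9657.1 met it with C1, C2, C4 and N2, at 0.685, 1.37, 1.33 and 0.385 FPKM.

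Of 30 known lncRNA genes listed for context, 3 had a row in the gene table and 1 was tested. That was Tug1, a conserved lncRNA that acts in part through chromatin regulators, at 2.60 ± 0.399 FPKM in controls and 4.01 ± 0.292 with nitroglycerin (mean ± SD, n = 4 per group). Its log2 difference on the log2(FPKM + 1) scale was 0.48 (adjusted p = 0.0589 by limma), so it did not pass either.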

How the data were processed

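The 8 libraries were described and compared from 2 tables deposited by the authors. The lncRNA table holds, per the file headers, FPKM and coverage for each assembled transcript and library, and CPC and CNCI scores deposited for each transcript. The gene table holds FPKM per gene, as deposited by the authors. Tools in the submitters' processing notes are StringTie 1.3.0, HISAT2 2.0 and Bowtie 0.12.2, and builds are Rnor_6.0 and mm8, with no role or order given; strand handling is not given in the sources used here.

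Transcripts that reached 0.1 FPKM in 4 or more libraries (2390, of which 587 short intergenic) were tested as log2(FPKM + 0.1). The test was limma 3.58.1 (R 4.3.3), its prior variance following the mean level, adjusted by Benjamini-Hochberg over all 2390. Gene rows that reached 1 FPKM in 4 or more libraries were tested as log2(FPKM + 1). Coverage divided by FPKM gave the aligned gigabases, and coverage times length divided by 151 gave read equivalents. Of 2033 values under about 20 read equivalents, 30.1% lay within 1 base of a whole multiple of 151, so they are an approximation and were not tested as counts; intervals from counts were not computed.

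Named were the 10 of lowest p in each direction, the 10 of highest mean, any above 0 in all of 1 group and at 0 in all of the other, the 5 highest spliced, and those at the length limits. MSTRG.4295.1, MSTRG.4296.1 and the neighbours of named transcripts were chosen for position. Members and lists were chosen with earlier results of these data known. Genome sequence and gene annotation of the build were not used here, so no sequence is printed and no nearest gene is named. The limma fit alone was tested on simulated data, drawn as normal on the log2 scale and without the exact zeros seen here. Python 3.11.15 with pandas 2.3.3 and matplotlib 3.10.9 made the tables and plots.

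Same-numbered samples did not deviate together across all 4 numbers (r = -0.02 to 0.02 over lncRNA transcripts; over genes 0.133 and 0.121 for numbers 1 and 4, and -0.01 for 2 and 3), so replicate numbers were not used as pairs. Alternatives were other pseudocounts, filters, library scalings and limma options, a block for the replicate number, and fits without each library.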

Additional observations from a re-analysis of the deposited data

Results flagged for a closer look

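Values far from the other 3 of their group were looked for in 68 groups of 4 libraries: the named transcripts, the number of short intergenic transcripts above 0 and their summed level. By Dixon's criterion 13 groups (19.1%) held one, where chance flags about 1 in 20. Of these, 7 are a group with 3 libraries listed at 0 and 1 above, which this criterion always marks.

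Control C2 stood high for MSTRG.10297.1, at 17.0 FPKM against 11.3 to 11.9 in the other 3 controls, and for MSTRG.15560.1, at 20.3 against 8.17 to 9.50. C2 was also low in the number of short intergenic transcripts above 0, at 593 against 658 to 666. Control C1 was listed at 0 for MSTRG.17199.1, with 42.0 to 47.2 FPKM in the other controls. C1 also had the lowest summed level without MSTRG.6636.1, at 631 FPKM against 870 to 909. N4 stood high for MSTRG.11834.1, at 33.1 FPKM against 10.2 to 12.4 in the other nitroglycerin libraries.

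The groups with a single library above 0 were MSTRG.1121.1 in C2 (0.597 FPKM), MSTRG.6667.1 in C3 (0.359 FPKM), MSTRG.8238.1 in C3 (0.850 FPKM), MSTRG.18072.1 in N3 (1.43 FPKM), MSTRG.2747.1 and MSTRG.7343.1 in N1 (1.01 and 0.853 FPKM), and MSTRG.9657.1 in N2 (0.385 FPKM). The other 3 libraries of each group were listed at 0.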

How the results depend on the processing

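At an adjusted p under 0.05 (limma), short intergenic transcripts were called in 1 setting: without a mean-variance trend 1 of 587 passed (0.170%, against 0.335% of all tested), MSTRG.10740.1 at 0.00275. A looser rule, an unadjusted p under 0.05 with a log2 difference of 1 or more in size, took 31 (5.28%, against 6.49% of all tested). Leaving out each library in turn gave 0 to 0. The 35 higher became 14 and 13 after rescaling by genes and by lncRNAs, and 25 to 46 with 1 library left out. The 25, without C1, were 4.26% (6.03% of all tested), and the 46, without C2, were 7.84% (9.08% of all tested). The 14 and 13 were 2.38% and 2.21%, against 2.76% and 2.63% of all tested. The 4 lower became 7 without the filter (0.489%, against 0.960% of all tested) and 2 with robust eBayes (0.341%, against 0.753%). They became 9 and 10 after the rescalings. With 1 library left out the lower count was 3 to 13 (13 without N4, 9 without N2). The 13 were 2.21% (2.09% of all tested), the 9 were 1.53% (1.80%), and the 3, without C3 or C4, were 0.511% (0.711% and 1.13%). The 9 and 10 after the rescalings were 1.53% and 1.70%, against 2.13% and 2.26% of all tested. The median log2 difference of 0.35 became 0.0721 and 0.0376 after the rescalings, and 0.26 to 0.45 with 1 library left out. With the replicate number as a block, 0 were called and no call changed. There 29 were higher (4.94%, against 6.53% of all tested) and 5 lower (0.852%, against 1.00%). The numbers did not pair the samples, and not every sample correlated best with its own number.

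Of 32 named transcripts, 23 kept their sign in each setting run for them; 4 were not tested at the filter of 0.5 FPKM. Chosen after seeing the data, rescaling by genes and by lncRNAs was also applied to groups without overlap. There 27 higher became 10 and 10 (1.70%, against 2.21% and 2.09% of all tested). The 1 lower became 4 and 4 (0.680%, against 1.21% and 1.38% of all tested). Applied to the summed FPKM without MSTRG.6636.1, the rescalings turned a mean difference of 281 into 25.5 and -0.956. Rescaling by genes and by lncRNAs gave MSTRG.15089.1 -0.0371 and -0.0756, MSTRG.6628.1 -0.0258 and -0.0640, MSTRG.10297.1 -0.11 and -0.15, MSTRG.6646.5 -0.0499 and -0.0883, MSTRG.3652.1 -0.16 and -0.20, and MSTRG.11834.1 -0.24 and -0.28. MSTRG.12409.1 became -0.0352 after rescaling by lncRNAs. With 1 library left out, MSTRG.11834.1 ran from -0.23 (without N4) to 0.33, and MSTRG.9054.2 from -0.80 to 0.81 (without N1). MSTRG.17199.1 was 0.23 with a pseudocount of 0.01, and -2.74 to 0.46 with 1 library left out. Division by the factors from genes (0.742 to 0.996 in controls, 1.07 to 1.22 with nitroglycerin) lowers nitroglycerin values relative to controls. The cause of that difference between libraries was not tested. The 9 named transcripts that changed sign had means of 4.07 to 24.7 FPKM. For short intergenic transcripts tested with a mean under 1 FPKM, a class without these 9, the median SE was 1.12 on the log2 scale.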
